A study of Mus musculus with 4 samples.

Results

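Transthyretin, retinol-binding protein 4, 5 apolipoproteins, the microsomal triglyceride transfer protein and 2 fatty acid-binding proteins were followed in mouse colonic organoids (colonoids) with and without butyrate. These 10 genes, *Ttr*, *Rbp4*, *Apoa1*, *Apoa4*, *Apoc3*, *Apob*, *Apoe*, *Mttp*, *Fabp1* and *Fabp2*, were taken by symbol from a table of 36144 gene names, and all 10 were found in it. The set was chosen by the log2 fold changes of these same libraries, in which *Ttr* was among the most lowered genes, so every change with butyrate is given as a description. Colonoids came from the colon of 1 male mouse aged 24 weeks and were cultured at passage 3 in Matrigel with EGF, Noggin, R-spondin, CHIR99021 (a GSK3 inhibitor that activates Wnt signalling) and Y-27632 (a ROCK inhibitor). The sample labels give the mouse as wild type, whereas the study describes the sequenced organoids as Hes1-GFP reporter organoids, and this difference did not enter any comparison. The 4 libraries were untreated colonoids at 48 h (day 2), colonoids given 2 mM sodium butyrate for 48 h, untreated colonoids at 72 h (day 3) and colonoids given 2 mM sodium butyrate for 72 h. Each condition has 1 library, so no difference could be set against replicate error and no p-value was computed.

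Apolipoproteins are the protein coat of lipoproteins, the particles that carry triglyceride and cholesterol in blood. In the gut, absorptive enterocytes of the small intestine take up fatty acids, bind them in the cytosol to fatty acid-binding proteins, rebuild triglyceride and load it onto apolipoprotein B with the help of the microsomal triglyceride transfer protein, so that chylomicrons leave the cell. Transthyretin carries thyroid hormone and, in complex with retinol-binding protein 4, vitamin A. The liver secretes most of the plasma pool of both proteins, and transthyretin is also made in the choroid plexus and in endocrine cells of the islet and gut. The colon takes up little dietary fat, and its epithelium is known for using butyrate as a fuel.

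Total counts were between 20790225 and 24207840 per library, and mitochondrial genes took between 14.1% and 18.4% of them. Counts were divided by DESeq2 size factors (normalised counts), and log2 fold changes were taken on the log2(normalised count + 1) scale. Intervals are exact 95% Clopper-Pearson intervals on the pair of counts. They cover counting error only, because each condition has 1 library and variation between cultures cannot enter them. Amplified reads carried no molecular identifiers and so are not separate molecules, and the counts are rounded estimates. The intervals can therefore be too narrow even for counting error. The libraries hold all cells of a culture together, so fewer cells of a type and less RNA per cell cannot be told apart. In all, 13979 genes had more than 10 counts in at least 2 libraries, 7 of the 10 members among them.

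Butyrate-treated colonoids held less *Ttr* and *Fabp2* RNA and more *Mttp* RNA than untreated colonoids at both times, whereas *Apob* and *Apoe* differed little. At 48 h, 2 of the 7 members that passed the count filter, *Ttr* and *Apoa1*, were at least 2-fold lower and 0 were at least 2-fold higher. Among all 13979 genes, 3.08% were at least 2-fold lower and 6.94% at least 2-fold higher at 48 h. At 72 h, 2 of the 7, *Ttr* and *Fabp2*, were at least 2-fold lower and 0 at least 2-fold higher, where 3.78% of all genes were lower and 4.53% higher by as much. *Ttr* alone was at least 2-fold lower at both times, as 0.887% of all genes were, and 2.55% of all genes were at least 2-fold higher at both times. The median log2 fold change of the 7 members was −0.75 at 48 h and −0.13 at 72 h, beside −0.01 and 0.00 over all genes. When only the 5 members averaging 50 or more normalised counts were kept, 1 in place of 2 was at least 2-fold lower at 48 h, and the medians were 0.196 and 0.07. After thinning to equal totals the 72 h median was 0.10. At each time 4 of the 7 were lower and 3 higher, the same genes at both, where 51.3% of all genes were lower at 48 h, 49.7% at 72 h and 31.3% at both. Of the 4, *Apoa1* was higher at 72 h after thinning to equal totals (0.21).

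**Figure D1:**
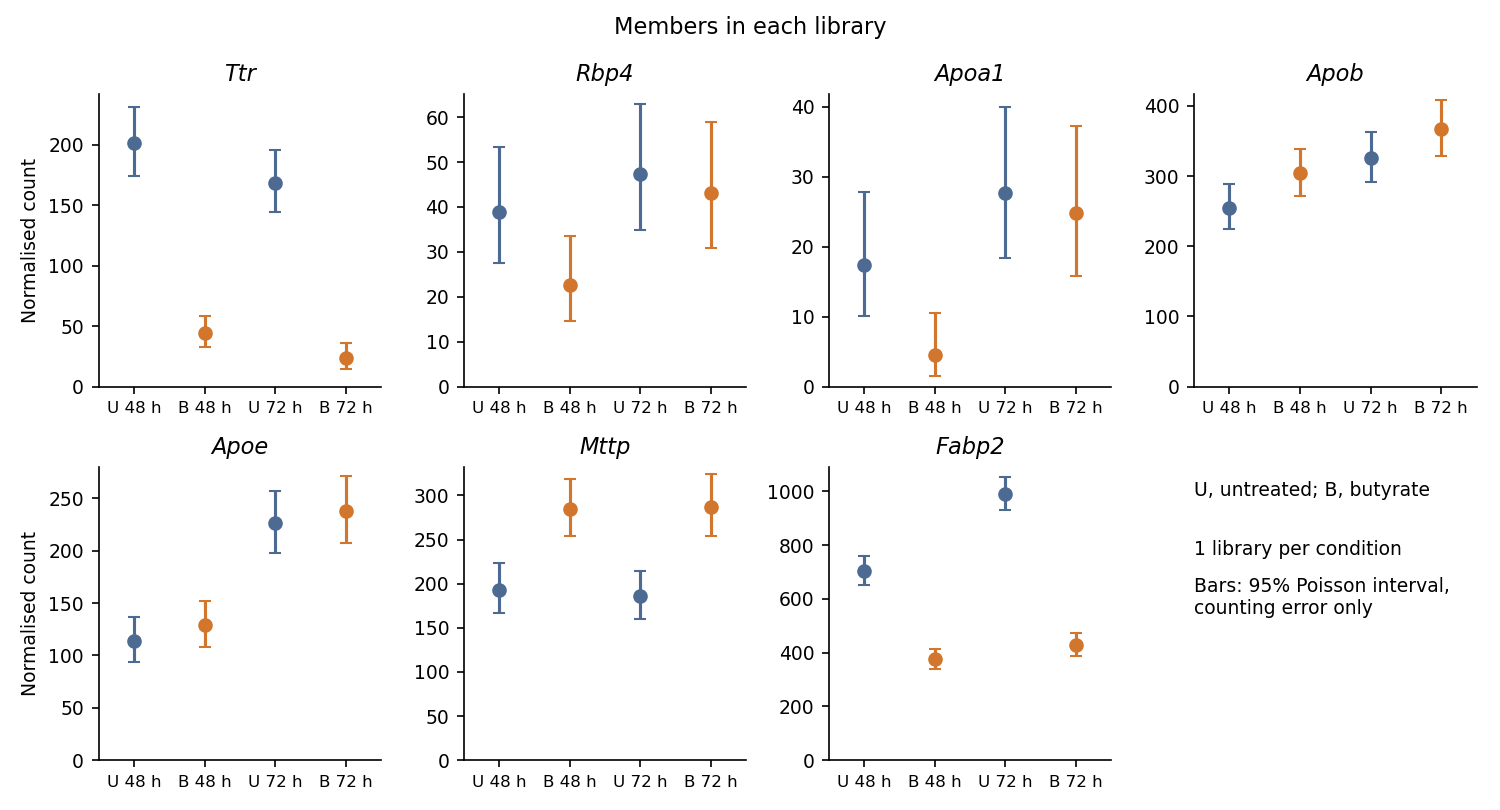
Normalised count of the 7 members that passed the count filter, in each of the 4 libraries (x axis: U, untreated; B, butyrate; y axis from 0). Points are single libraries and bars are 95% Poisson intervals, which cover counting error only; *Ttr* lies between 169 and 201 without butyrate and between 23.8 and 44.5 with it.

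*Ttr*, the transthyretin gene on chromosome 18 from 20665280 to 20674321 (GRCm38), gave 197 counts without and 49 with butyrate after 48 h, against 171 and 22 after 72 h. Both butyrate libraries were low and both untreated libraries were high. After scaling, *Ttr* was 4.45-fold lower with butyrate at 48 h (log2 fold change −2.15, −2.66 to −1.72) and 6.86-fold lower at 72 h (−2.78, −3.54 to −2.18). From the lowest log2 fold change upwards, *Ttr* held rank 77 of 13979 genes at 48 h and rank 63 at 72 h, and ranks 6 and 4 among the 10789 genes that averaged 100 or more normalised counts. These ranks belong to the contrast that brought *Ttr* to notice and are not evidence of their own. Between the untreated libraries *Ttr* changed by −0.25 (−0.56 to 0.05) from 48 h to 72 h, and between the butyrate libraries by −0.88 (−1.70 to −0.15). The 72 h change with butyrate minus the 48 h change was −0.62 (−1.41 to 0.16), an interval from the counting errors of the 4 counts that included 0.

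*Rbp4*, which encodes the plasma carrier of retinol that travels bound to transthyretin, lies on chromosome 19 from 38116629 to 38125281. Counts were 38 without and 25 with butyrate after 48 h, against 48 and 40 after 72 h. The log2 fold change of *Rbp4* was −0.75 (−1.57 to −0.01) after 48 h and −0.13 (−0.78 to 0.50) after 72 h, an interval that included 0. At both times the interval of *Rbp4* lay above that of *Ttr*. Between the butyrate libraries *Rbp4* was higher at 72 h by 0.90 (0.17 to 1.71), whereas *Ttr* was lower.

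Enteroendocrine genes were followed beside *Ttr*, since transthyretin is known from endocrine cells of the gut. All 20 genes of a list of hormones, granins and enteroendocrine transcription factors passed the filter. At 48 h, 5 were at least 2-fold lower and 1 at least 2-fold higher, with a median of −0.36. At 72 h, 7 were lower by as much and 0 higher, with a median of −0.80. Normalised counts summed over the list were 9964 without and 11027 with butyrate after 48 h, against 12207 and 7233 after 72 h, and *Chgb* was the highest gene in each. *Chgb* and *Chga*, the chromogranins of secretory granules, changed by 0.40 and 0.07 at 48 h and by −0.81 and −1.04 at 72 h. *Gcg*, the proglucagon gene of L-cells, changed by 0.03 (−0.08 to 0.14) at 48 h and by −0.79 (−0.91 to −0.67) at 72 h. The transcription factor genes *Insm1*, *Fev* and *Neurod1* were lower at both times, with log2 fold changes of −1.39, −0.65 and −0.41 at 48 h and −0.50, −0.73 and −0.78 at 72 h. The part of enteroendocrine cells in the *Ttr* difference was not tested.

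Most listed hepatocyte genes had few or no counts. Of 15 plasma protein and liver enzyme genes found in the table, 8 had at most 3 counts in every library, and *Ahsg*, *Fgb*, *Fgg*, *Serpina3k* and *Apcs*, named after their values were seen, had none. *Alb*, the albumin gene, also named after its values were seen, gave 7 counts without and 4 with butyrate after 48 h, against 14 and 3 after 72 h. The 3 that passed the filter were *Cps1*, *Ambp* and *Afm*. *Afm*, which encodes the plasma glycoprotein afamin, gave 42 and 21 counts after 48 h, against 49 and 9 after 72 h, with log2 fold changes of −1.13 (−2.00 to −0.38) and −2.20 (−3.53 to −1.27). *Ambp*, the gene of alpha-1-microglobulin and bikunin, changed by 0.11 and −0.10, with both intervals including 0. *Cps1*, a urea cycle enzyme gene, changed by 0.74 and −0.64. The summed normalised counts of the list were between 98.3 and 181 per library. The part of hepatocyte-type expression in the *Ttr* difference was not tested.

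Over the 4 libraries, the genes with a profile nearest to that of *Ttr* were *Defa24*, *Gm1123*, *Fer1l4*, *Far2* and *Cd200*. Likeness was the Euclidean distance between log2 normalised counts centred on their mean over the libraries, among 10788 other genes that averaged 100 or more. The distance was 0.28 for *Defa24*, a defensin gene whose counts depend on how reads were shared with its near-identical copies, 0.75 for *Gm1123*, 0.77 for *Fer1l4*, 0.94 for *Far2*, a fatty acyl-CoA reductase gene, and 0.996 for *Cd200*, which encodes a membrane glycoprotein of immune regulation. Their log2 fold changes with butyrate were between −2.00 and −1.07 at 48 h and between −2.92 and −1.38 at 72 h. That all were lower at both times follows from their choice by the *Ttr* profile and is no separate result. With 4 libraries such likeness rests on 1 value per condition.

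**Figure D2:**
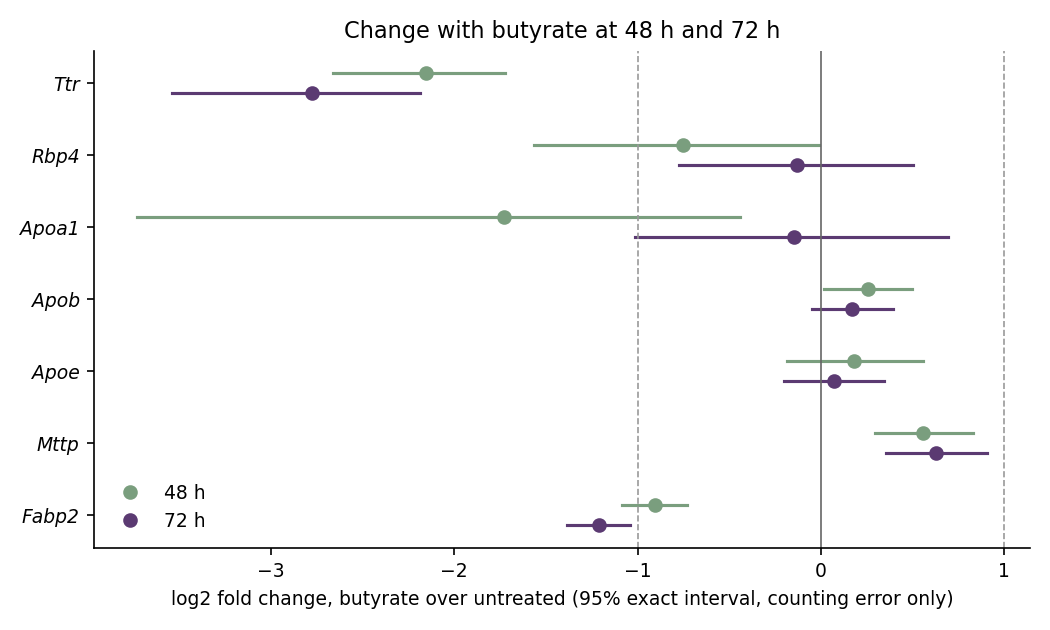
Log2 fold change of butyrate over untreated (x axis) for each of the 7 members that passed the filter at 48 h and 72 h, with exact 95% intervals for counting error; dashed lines mark a 2-fold change. The intervals of *Ttr* lie wholly beyond the 2-fold line at both times, those of *Fabp2* only at 72 h, and those of *Mttp* lie above 0 at both times.

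The apolipoprotein genes fell into expressed and nearly silent ones. *Apoa1*, which encodes the main protein of high-density lipoprotein, *Apoc3*, an inhibitor of triglyceride clearance, and *Apoa4*, a chylomicron protein, lie side by side on chromosome 9 between 46228580 and 46243459. *Apoa4* gave 1 count, in untreated colonoids of 48 h, and 0 in the other 3 libraries. *Apoc3* gave 1 count, in untreated colonoids of 72 h, and 0 in the other 3. These counts are under a floor of 3 counts, which corresponds to between 0.124 and 0.144 CPM (counts scaled to a common library total) in these libraries, and no fold change was taken for either gene. *Apoa1* gave 17 counts without and 5 with butyrate after 48 h, against 28 and 23 after 72 h. The butyrate library at 48 h was thus the only one with fewer than 17 counts. Its change was −1.73 (−3.73 to −0.44) on the log2 scale after 48 h, compared with −0.15 (−1.02 to 0.69) at 72 h, so that the decrease was seen at 1 time only and rests on 5 and 17 counts. The difference between the times, 1.58 (−0.06 to 3.23), had an interval that included 0.

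*Apob*, on chromosome 12 from 7977648 to 8016835, encodes the structural protein of chylomicrons and of low-density lipoprotein. Counts were 249 without and 335 with butyrate after 48 h, against 330 and 340 after 72 h. Each butyrate library was slightly above the untreated library of its time, with log2 fold changes of 0.25 (0.01 to 0.50) and 0.17 (−0.05 to 0.40). The change between the untreated libraries from 48 h to 72 h, 0.35 (0.11 to 0.60), was of similar size. *Apoe*, on chromosome 7 from 19696109 to 19699188, encodes a ligand of lipoprotein receptors that macrophages and many other cells make. Counts were 111 without and 142 with butyrate after 48 h, against 229 and 220 after 72 h. Both 72 h libraries were above both 48 h libraries. An effect of time and one of the single culture cannot be told apart here. *Apoe* was 1.98-fold higher at 72 h than at 48 h in untreated colonoids (0.99, 0.66 to 1.33) and 1.84-fold higher in butyrate-treated colonoids (0.88, 0.57 to 1.20). With butyrate it changed by 0.18 (−0.19 to 0.55) at 48 h and 0.07 (−0.20 to 0.34) at 72 h.

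Many markers of other cells that make *Apoe* had few or no counts, whereas *Cd68* and some stromal genes were well above the floor. Of 10 macrophage genes, 6 had at most 3 counts in every library, and *Adgre1*, *C1qb* and *C1qc*, named after their values were seen, had none. *Ptprc*, the pan-leukocyte gene, gave 5 and 6 counts after 48 h, against 15 and 6 after 72 h, and *Mrc1*, a macrophage mannose receptor gene, had 58 and 104, and 53 and 33. *Cd68*, a lysosomal membrane protein gene, was the highest of the list, with 128 counts without and 1309 with butyrate after 48 h, against 172 and 420 after 72 h. *Csf1r*, a receptor gene of the macrophage lineage named after its values were seen, gave 1 and 2 counts after 48 h, against 0 and 16 after 72 h. The summed macrophage list was between 200 and 1291 normalised counts and followed *Cd68*. With *Cd68* and *Mrc1* alone past the filter, 1 of 2 was at least 2-fold higher at each time and 0 lower, with medians of 1.92 and 0.44. Of 10 stromal genes, 4 had at most 3 counts in every library, *Col3a1* and *Lum*, named after their values were seen, had none, and the sum was between 333 and 426. *Thy1*, *Vim* and *Pdgfrb*, the highest of the 5 that passed the filter, none of which changed 2-fold, changed with butyrate by −0.16, 0.47 and −0.40 at 48 h and by 0.27, −0.01 and −0.79 at 72 h, and the stromal medians were 0.11 and −0.01, the latter above 0 with total count scaling. The part of such cells in the *Apoe* counts was not tested.

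The remaining members were also compared between the times. From 48 h to 72 h in untreated colonoids, 0 of the 7 members changed at least 2-fold in either direction, where 1.82% of all genes were lower and 2.66% higher by as much, and the median of the members was 0.35. In butyrate-treated colonoids 1 of the 7, *Apoa1*, was at least 2-fold higher (2.22, 1.03 to 4.2, from 5 and 23 counts) and 0 were at least 2-fold lower, where 3.67% of all genes were higher and 4.95% lower, and the median was 0.27, or 0.183 over the 5 members averaging 50 or more normalised counts and 0.098 with no filter. *Fabp2* was higher at 72 h by 0.49 (0.35 to 0.63) in untreated and by 0.19 (−0.02 to 0.39) in butyrate-treated colonoids.

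*Mttp* encodes the large subunit of the microsomal triglyceride transfer protein, which moves triglyceride onto apolipoprotein B in the endoplasmic reticulum. It lies on chromosome 3 from 138089854 to 138144968. Counts were 189 without and 314 with butyrate after 48 h, against 188 and 266 after 72 h. Both butyrate libraries were above both untreated libraries, and the pairs differed by nearly the same amount at both times. *Mttp* was 1.47-fold higher with butyrate at 48 h (0.56, 0.29 to 0.83) and 1.54-fold higher at 72 h (0.63, 0.36 to 0.91), below the 2-fold threshold at each time. In the GENCODE M21 annotation, 457 bases of its exons are shared with exons of *Trmt10a*, a transfer RNA methyltransferase gene on the opposite strand, and the strand setting of the quantification is not given in the sources used here. *Trmt10a*, named after its values were seen, had log2 fold changes of 0.36 and 0.40, and the part of shared reads was not tested. *P4hb*, which encodes the small subunit of the transfer protein and was also named after its values were seen, changed by 0.00 (−0.03 to 0.02) at 48 h and −0.11 (−0.14 to −0.09) at 72 h.

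The genes of the fatty acid-binding proteins differed in level, with *Fabp2* the highest member and *Fabp1* nearly unread. *Fabp2*, which encodes the intestinal fatty acid-binding protein, lies on chromosome 3 from 122895072 to 122899506. *Fabp1*, the gene of the liver form, which enterocytes of the proximal gut also make, lies on chromosome 6 from 71199827 to 71205023. Windows were the 250 bases before a RefSeq start (GRCm38.p6), whereas the gene positions given here are those of GENCODE M21, and the starts can differ. The RefSeq windows of *Fabp1* and *Apob* reach 52 and 29 bases into the GENCODE genes, and that of *Fabp2* ends just before its gene. The parts of the windows before the GENCODE gene, written 5′ to 3′ on the strand of the gene, are shown because one of these paralogs was the highest member per kb of exon and the other was nearly unread, and that of *Apob* because it stayed nearly level. They cover chr3:122894822-122895071, chr6:71199629-71199826 and chr12:7977427-7977647, all on the plus strand. Capitals mark matches to the motifs named after them.
Fabp2: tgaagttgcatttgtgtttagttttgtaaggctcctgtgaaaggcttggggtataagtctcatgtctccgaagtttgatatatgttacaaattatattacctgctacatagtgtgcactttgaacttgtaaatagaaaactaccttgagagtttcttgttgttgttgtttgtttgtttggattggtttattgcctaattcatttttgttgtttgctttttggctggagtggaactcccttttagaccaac
Fabp1: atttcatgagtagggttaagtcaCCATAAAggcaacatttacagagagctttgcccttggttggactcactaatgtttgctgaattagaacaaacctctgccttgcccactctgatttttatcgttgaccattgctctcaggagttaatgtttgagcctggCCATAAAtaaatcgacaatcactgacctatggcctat
Apob: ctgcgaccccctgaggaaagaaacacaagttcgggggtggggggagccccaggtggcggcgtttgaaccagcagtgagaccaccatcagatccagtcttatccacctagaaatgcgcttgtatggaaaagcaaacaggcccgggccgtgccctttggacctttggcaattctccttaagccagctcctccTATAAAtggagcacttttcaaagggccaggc

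The windows were searched on both strands for 8 motifs. For nuclear receptors these were the HNF4 motif, CAAAGTCC, and a direct repeat bound by HNF4, PPAR-RXR and COUP-TF. The motif of the forkhead factors FOXA was TGTTTAC and that of the GATA factors was AGATAA. The motif of the intestinal factor CDX was TTTATGG, and a motif of HNF1 was searched as well. The TATA box was read as TATAAA and the GC box of the factor Sp1 as GGGCGG. The CDX motif and the reverse of the TATA box share their first 5 letters. *Fabp1* held 2 CDX matches, from 175 to 169 and from 37 to 31 bases before its GENCODE start. It also held TATA box letters from 30 to 25 bases before its RefSeq start, a place inside the GENCODE gene that is not printed. *Apob* held a TATA box from 31 to 26 bases before its GENCODE start, which is 60 to 55 bases before its RefSeq start. *Fabp2* held no match, which says only that these letters are not in this window. Of 32851 windows of the same length, 12.4% held the TATA box, 2.43% the CDX motif, 32.7% the GC box, 9.99% the GATA motif, 3.17% the FOXA motif, 1.2% the HNF4 motif, 0.371% the HNF1 motif and 0.0335% the direct repeat. Windows were found for 8 of the 10 members, and 4 of them (*Apoa1*, *Apoa4*, *Mttp* and *Fabp2*) held none of the 8 motifs. The *Mttp* window lies wholly inside the GENCODE gene, and those of *Apoa4* and *Apoa1* reach 148 and 50 bases into theirs. *Rbp4* held a FOXA match in 1 of its 2 windows and a TATA box with 2 GC boxes in the other, and *Apoe* held TATA box letters in 1 of 3 windows, on both strands with 2 shared bases. The *Rbp4* window with the TATA box and the *Apoe* window with a match lie inside the GENCODE genes. *Ttr* and *Apoc3* had no entry.

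*Fabp2* gave 689 counts without and 414 with butyrate after 48 h, against 1004 and 396 after 72 h. Both butyrate libraries were below both untreated libraries. *Fabp2* was 1.87-fold lower with butyrate at 48 h (−0.91, −1.09 to −0.73) and 2.31-fold lower at 72 h (−1.21, −1.38 to −1.04). The 72 h log2 fold change minus that at 48 h was −0.31 (−0.55 to −0.06). *Fabp1* gave 1 count, in untreated colonoids of 72 h, and 0 in the other 3, below the floor of 3 counts, and no fold change was taken. Of 15 further genes of intracellular lipid-binding proteins, 5 passed the filter. At 48 h 0 of the 5 were at least 2-fold lower, and at 72 h 1, *Rbp2*, named after its values were seen, was at least 2-fold lower and 0 at least 2-fold higher. *Fabp5*, the epidermal fatty acid-binding protein gene, followed the direction of *Fabp2* with log2 fold changes of −0.29 (−0.42 to −0.15) and −0.90 (−1.06 to −0.75). *Scp2*, a sterol carrier gene, changed by −0.05 (−0.12 to 0.03) and −0.34 (−0.42 to −0.26).

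Most other enterocyte genes did not share the direction of *Fabp2* at 48 h. Of 12 small intestinal enterocyte genes, 8 passed the filter, and 7 of these 8 were higher with butyrate at 48 h and 7 lower at 72 h, with medians of 0.45 and −1.05. At 48 h 0 of the 8 were at least 2-fold lower and 1 higher, and at 72 h 4 were lower and 0 higher. Normalised counts summed over the list were 6126 without and 7026 with butyrate after 48 h, against 9706 and 5163 after 72 h. *Sis*, the sucrase-isomaltase gene, and *Mep1a*, a brush border peptidase gene, changed by 0.83 and 0.34 at 48 h and by −1.99 and −0.93 at 72 h. *Slc5a1*, the sodium-glucose cotransporter gene, changed by −0.10 (−0.16 to −0.03) and −0.48 (−0.55 to −0.41), and *Anpep*, an aminopeptidase gene, by 0.09 and 0.56. The 12 colonocyte genes, which check the label of the cultures, all passed the filter. They were 10 higher and 2 lower at 48 h and 2 higher and 10 lower at 72 h, with medians of 0.17 and −0.37. At 48 h 2 of the 12 were at least 2-fold lower and 3 higher, and at 72 h 2 were lower and 0 higher. *Car1*, *Cyp2c55* and *Guca2a*, the highest of them, changed by 1.14, 0.12 and 0.16 at 48 h and by −0.88, −0.27 and −0.49 at 72 h. *Slc37a2*, *Saa1* and *Ceacam20* kept their direction, with −1.24, −1.61 and 0.99 at 48 h and −1.94, −0.34 and 0.70 at 72 h. The part of a changed share of absorptive cells in the *Fabp2* difference was not tested.

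Levels were compared between members per kb of exon, as the union of exons in GENCODE M21. By the mean of the 4 libraries, the order was *Fabp2*, *Ttr*, *Apoe*, *Mttp*, *Rbp4*, *Apob* and *Apoa1*. *Fabp2* had between 389 and 1027 normalised counts per kb, above every other member in every library. *Ttr* had 170 and 142 without butyrate and 37.5 and 20.03 with it, and so lay above *Apoe* in the untreated libraries and below it in the butyrate libraries. *Apoe* had between 53.1 and 111, above *Mttp* in every library. *Mttp*, with 29.9 to 46.3, *Rbp4*, with 16.9 to 35.3, *Apob*, with 18.3 to 26.4, and *Apoa1*, with 3.67 to 22.4, each overlapped with the next of these 4 in this order.

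**Figure D3:**
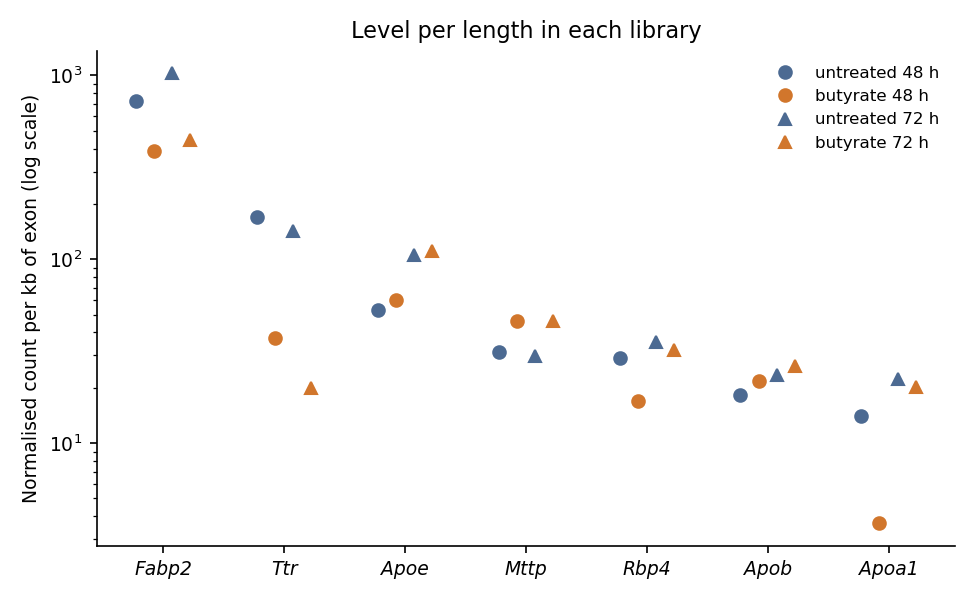
Normalised count per kb of exon (log scale) for the 7 members that passed the filter, ordered by their mean, with 1 point per library (circles 48 h, triangles 72 h, blue untreated, orange butyrate). *Fabp2* stands above all others, and *Ttr* is next to it in both untreated libraries, below *Apoe* and *Mttp* with butyrate at 48 h and lowest, beside *Apoa1*, with butyrate at 72 h.

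Genes around the members in fat handling were taken from lists. Of 12 other apolipoprotein genes, 7 passed the filter. At 48 h *Apoc2*, the activator of lipoprotein lipase in the cluster of *Apoe*, and *Apobr*, a receptor for apolipoprotein B, were at least 2-fold higher (1.20, 0.79 to 1.64, and 1.77, 1.14 to 2.54), and *Apoa2* was lower from 13 and 5 counts. At 72 h 0 of the 7 changed by as much; these genes were named after their values were seen. *Clu*, the clusterin gene, was lower by a smaller amount at both times (−0.36, −0.50 to −0.22, and −0.56, −0.71 to −0.42), *Apoo* changed by 0.32 and 0.02, and *Apool* by −0.03 at both times. The last pair encode mitochondrial proteins with an apolipoprotein name. The list medians were −0.01 and −0.03, the latter above 0 with total count scaling.

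Of 22 genes of chylomicron assembly and fat absorption, 21 passed the filter. At 48 h, *Abca1*, a cholesterol efflux transporter gene, was at least 2-fold lower (−1.70, −2.59 to −0.99) and *Mogat2*, a monoacylglycerol acyltransferase gene, at least 2-fold higher, with 16 counts without and 247 with butyrate. At 72 h *Abca1* (−1.22, −1.91 to −0.61) and *Tm6sf2* (−1.13, −1.65 to −0.66) were at least 2-fold lower and 0 were higher by as much, and *Mogat2* had 23 and 27 counts. *Abca1*, *Mogat2* and *Tm6sf2* were named after their values were seen. *Plin2*, a lipid droplet coat gene, shared the direction of *Mttp* (0.71, 0.60 to 0.82, and 0.38, 0.26 to 0.50). *Slc27a4*, a fatty acid transporter gene, shared that of *Fabp2* (−0.35, −0.48 to −0.22, and −0.71, −0.86 to −0.58), as did *Mia2*, an endoplasmic reticulum export gene (−0.31 and −0.24). The list medians were 0.18 at 48 h and −0.02 at 72 h, a sign that turned with total count scaling at 72 h.

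Of 13 receptor genes for lipoproteins and retinol carriers, 12 passed the filter. At 48 h 4 were at least 2-fold higher (*Cubn*, *Amn*, *Stra6* and *Lrp1*) and 0 lower, and at 72 h 1, *Cubn*, was higher and 0 lower. *Cubn* encodes cubilin, an endocytic receptor that takes up apolipoprotein A1. Counts were 219 without and 794 with butyrate after 48 h, against 93 and 347 after 72 h (1.68, 1.47 to 1.91, and 2.02, 1.70 to 2.38). *Stra6*, the cell surface receptor for retinol-binding protein, had 57 and 168, and 65 and 81 counts, and *Amn*, the membrane anchor of cubilin, had 70 and 295, and 102 and 72. *Amn*, *Stra6* and *Lrp1* were named after their values were seen. *Lsr*, a receptor gene for triglyceride-rich lipoproteins, was lower by less than 2-fold at both times (−0.51 and −0.37). The list medians were −0.02 and 0.04.

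All 26 genes of transcription factors of liver and enterocyte genes passed the filter. At 48 h *Nr2f1* was at least 2-fold lower, from 13 and 4 counts, and *Gata4* (1.87, 1.25 to 2.64) and *Creb3l3* (1.25, 0.66 to 1.93) were at least 2-fold higher. At 72 h *Nr1h3* (−1.33, −1.84 to −0.88) and *Ppara* (−1.01, −1.45 to −0.60) were lower by as much and *Gata4* (1.46, 1.04 to 1.93) higher. These genes were named after their values were seen, as was *Hnf4a*, the nuclear receptor gene best known for driving apolipoprotein genes, which changed by 0.01 (−0.02 to 0.04) and −0.38 (−0.41 to −0.34). *Hnf4g*, its paralog, was lower at both times by less than 2-fold (−0.58, −0.86 to −0.31, and −0.43, −0.72 to −0.14), and so were *Nr2f2* (−0.51 and −0.29) and *Nr5a2* (−0.23 and −0.49). The medians of the list were 0.02 and −0.27.

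**Figure D4:**
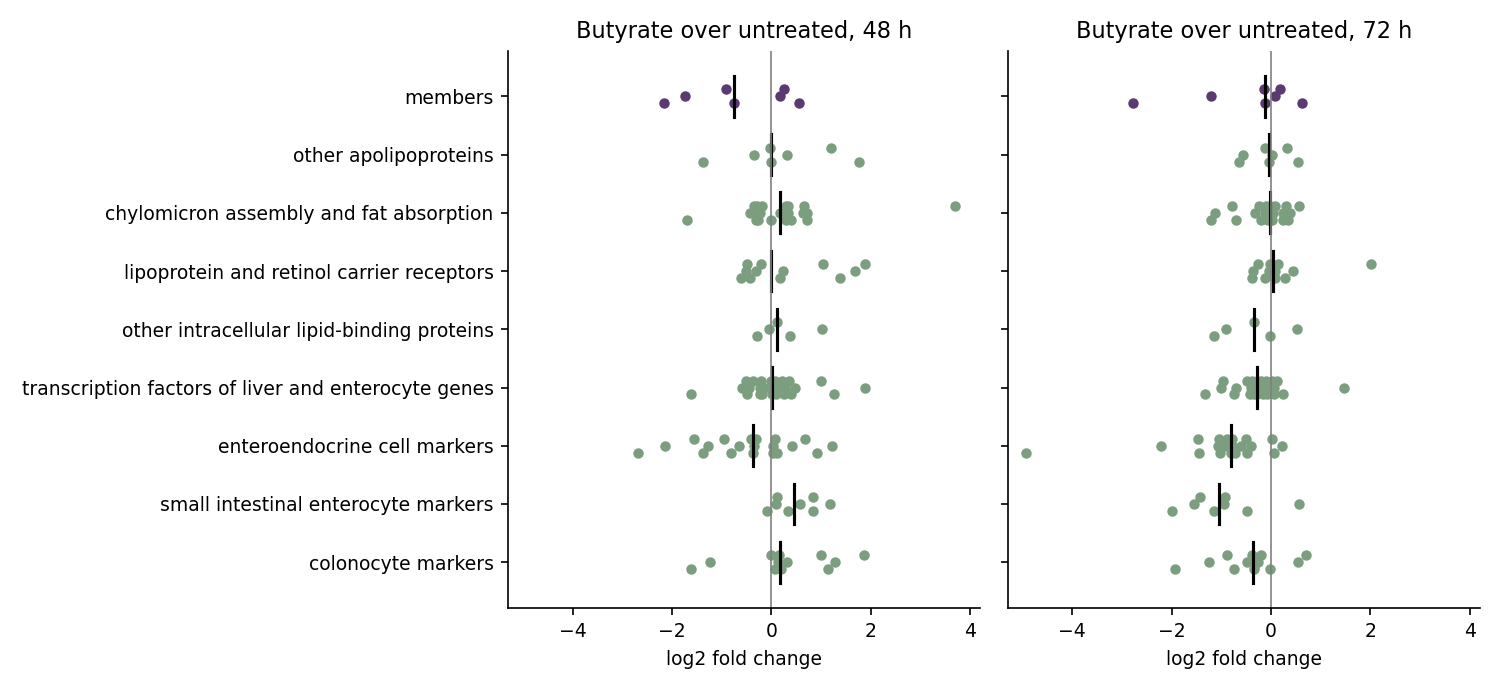
Log2 fold change of butyrate over untreated at 48 h (left) and 72 h (right) for the 7 members and for the genes of 8 lists that passed the filter; points are genes and black bars list medians. *Ttr* is the lowest member at both times, and the enterocyte and colonocyte lists lie mostly above 0 at 48 h and below 0 at 72 h.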

How the data were processed

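Poly-A RNA of 4 colonoid libraries was sequenced. The authors deposited whole-number counts per gene name, which are rounded estimates: reads were quantified with kallisto 0.44.0 against GRCm38.p6, the tool and build in the submitters' processing notes, and summed to genes with tximport, without scaling or filter. Among the 36144 names, 26 read as dates and 2 occurred 2 times.

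The study's count filter (above 10 counts in 2 or more libraries) was applied. Size factors came from DESeq2 1.42.0 and TMM factors from edgeR 4.0.16 in R 4.3.3. Other steps ran in Python 3.11.15 (scipy 1.17.1, pandas 2.3.3, numpy 2.4.6), with figures from matplotlib 3.10.9. The pseudocount was 1, and a change counted from 2-fold. Intervals at the 95% level came from Clopper-Pearson limits on pairs of counts, those of differences between times from a normal approximation, and those of the plotted levels from the Poisson distribution. The calculation was tested on simulated data. Total counts, between 20790225 and 24207840, set the precision, with a floor of 3 counts.

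The members and the 11 gene lists were chosen with earlier results of these data known. Named were all members, from each list up to 3 genes that averaged 100 or more normalised counts and had the largest change of one direction at both times, the 3 highest markers of each other cell type, and the 5 genes nearest to *Ttr*; others are stated as named after their values were seen. Of all listed genes, 1 was not matched to the table. Alternatives were TMM and total count scaling, total counts without mitochondrial genes, a pseudocount of 5, other filters and thinning to the smallest total. Results of some listed genes are not reported here.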

Additional observations from a re-analysis of the deposited data

Results flagged for a closer look

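The results below moved in opposite directions with butyrate at 48 h and 72 h, or differed between the times with a counting interval that excluded 0. With 1 library per condition, none of these differences was tested across replicates, and an effect of time and one of the single culture cannot be told apart. *Fabp2* was lower at both times, and its log2 fold change at 72 h minus that at 48 h was −0.31, with a counting interval that excluded 0. The differences of *Apoa1* (1.58), *Rbp4* (0.62) and *Ttr* (−0.62) were larger, with intervals that included 0.

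Among the gene lists, the median log2 fold change of small intestinal enterocyte markers was 0.45 at 48 h and −1.05 at 72 h, that of colonocyte markers 0.17 and −0.37, that of other intracellular lipid-binding proteins 0.11 and −0.34, and that of hepatocyte plasma proteins, of which 3 genes passed the filter, 0.11 and −0.64. Among the named genes, *Sis* changed by 0.83 and −1.99, *Mep1a* by 0.34 and −0.93, *Car1* by 1.14 and −0.88, *Cyp2c55* by 0.12 and −0.27, *Guca2a* by 0.16 and −0.49, *Chgb* by 0.40 and −0.81, and *Cps1* by 0.74 and −0.64. The counting intervals of these genes excluded 0 at both times.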

How the results depend on the processing

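Other scalings and the pseudocount of 5 changed no count of members at least 2-fold lower or higher with butyrate. Requiring a mean normalised count of at least 50 left 5 members, without *Rbp4* and *Apoa1*, so that 1 member in place of 2 was at least 2-fold lower at 48 h and the median at 48 h reversed from −0.75 to 0.196, since fewer members entered it. The median at 72 h, −0.13, was 0.07 with that filter, 0.10 after thinning and −0.08 with total count scaling. With no filter the median at 48 h was −0.38 and that of the change over time with butyrate 0.098 in place of 0.27, and 3 members were lower at 48 h, *Apoa4* with 1 count against 0 among them. Thinning to the smallest total, in 1 draw, placed *Rbp4* at −1.003 at 48 h, a count of 3 lower members, and *Apoa1* at 0.21 at 72 h, the single change of sign among 98 recomputed values of members, all of which stayed within their counting intervals. Over the alternatives *Ttr* stayed between −2.17 and −2.06 at 48 h and between −2.78 and −2.60 at 72 h. Of 88 list medians recomputed under 4 alternatives chosen after seeing the data, 4 changed sign, all at 72 h with total count scaling, with or without mitochondrial genes. With total count scaling the median of all genes at 72 h was 0.05. Each condition has 1 library and no replicate number. A fit of treatment with time as an additive term would leave 1 residual degree of freedom and was not run, since the members were chosen by this contrast. Fold changes of *Apoa1* and *Rbp4* are limited by their depth.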
